A study of Mus musculus with 34 samples.

Results

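The acute-phase response genes Saa1, Saa2, Saa4, Lcn2, Orm1, Orm2, Hp, Hpx and Apcs were followed through mouse livers and liver tumours carrying altered forms of beta-catenin. The members were chosen by gene symbol: 9 of the 14086 genes with normalized counts, and 5 of the 1659 genes with z-scores (Saa1, Saa2, Saa4, Orm1 and Orm2). All 9 passed the filter for testing, a mean normalized count of at least 10 over the libraries, as did 6592 genes in all. The acute-phase response is the change in the plasma proteins made by hepatocytes during inflammation or injury. Cytokines released by macrophages and other cells, chiefly interleukin 6 and interleukin 1, reach hepatocytes and act through STAT3, NF-kB and C/EBP factors. Positive acute-phase proteins such as serum amyloid A then increase in plasma, while negative ones such as albumin and transthyretin decrease.

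Per the labels, liver cancer was modelled by hydrodynamic injection, a rapid injection of a large volume into the tail vein that carries plasmids into hepatocytes. Strand-specific libraries were made from total RNA of frozen tumours. That text is shared by every sample, the wild type included, and the labels give no strain, age, sex, promoter or number of animals. Normalized counts covered 18 libraries in 6 groups by source label: wild type (2), beta-catenin skip 1 isoform alone (3, here skip1 alone), skip 2 isoform alone (2, skip2 alone), skip 1 isoform induced (5, skip1 induced), skip 2 isoform induced (2, skip2 induced) and ΔN90-beta-catenin induced (4, dN90 induced). Going by their name, the skip isoforms lack exon sequence of beta-catenin, the effector of Wnt signalling, and the source labels do not say which. ΔN90 lacks the N terminus through which the protein is marked for degradation. Z-scores covered these libraries and, scaled apart from them, 16 more: tumour subtype A (4), subtype B (9) and an sgActin and YAPS127A control (3), which pairs an actin guide RNA with an active mutant of the Hippo pathway effector YAP. What the induced groups received besides the isoform is not given in the labels. For the skip2 groups the source label says skip 2 while another label field says skip 1, and the source label was used. Whether the libraries in a group stem from different animals is not stated, and the p-values reflect only their spread, which may be technical.

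Estimated reads ran from 361772 to 933146 per library, so genes with few reads are imprecise. Column sums of the normalized counts were 610688 to 694773 in the 7 libraries of wild type, skip1 alone and skip2 alone (the non-induced libraries) and 415528 to 524243 in the 11 induced ones. The labelled tissue was checked against hepatocyte markers: 10 of 11 were read, none was at 0 throughout, and their summed level was 67634 to 91779 in non-induced and 24602 to 64665 in induced libraries. Alb, Apoa1, Ttr, Trf and Serpina1a among them are also in the lists of acute-phase proteins used below, so this sum is not separate from those results. The macrophage and Kupffer cell markers (10 of 10) summed to 234 to 377 in non-induced and 362 to 728 in induced libraries. The cholangiocyte markers (6 of 7), of which Spp1 made up most, summed to 8.74 to 35.2 and 81.1 to 670. These sums move with induction beside every induction result given here, and their part in those results was not tested.

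**Figure D1:**
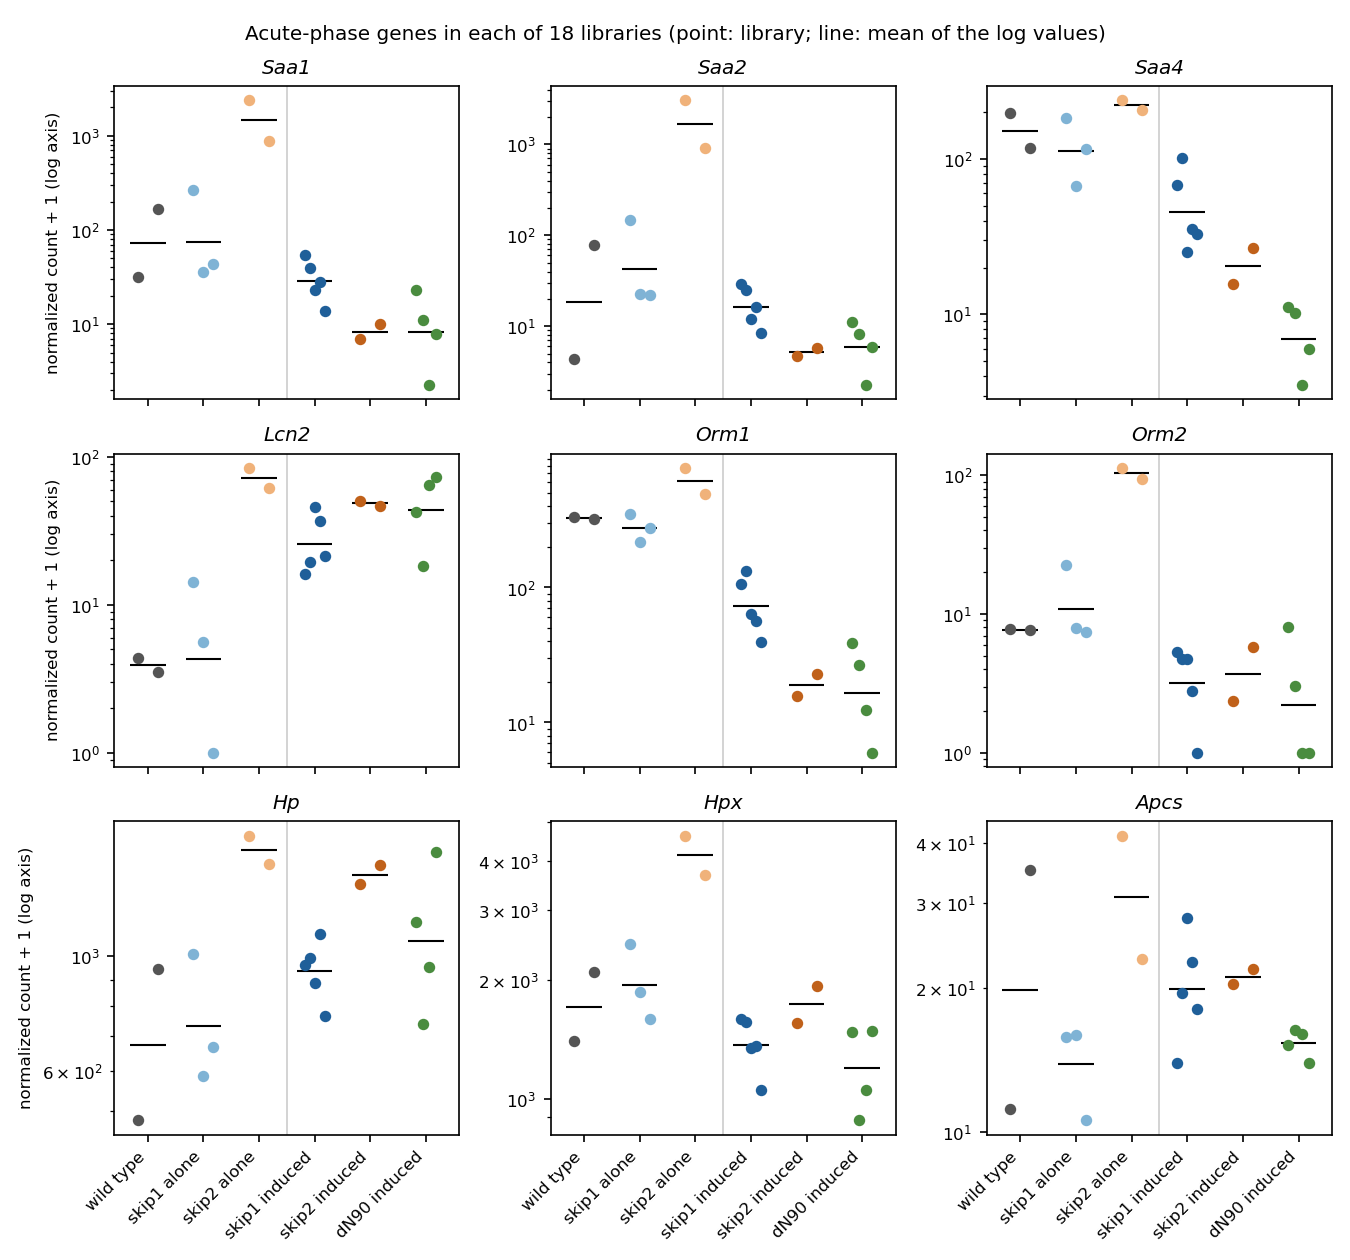
Normalized count + 1 on a log axis for each of the 9 genes (panels), with 1 point per library, the 6 groups along the horizontal axis and a line at the mean of the log values; the grey line parts non-induced from induced groups. Saa1, Saa2, Saa4, Orm1, Orm2 and Hpx stand highest in the 2 skip2 alone libraries, Orm1 is lower in all 11 induced libraries than in all 7 others, and for Apcs each group overlaps with the next in the order of means.

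Serum amyloid A proteins are small apolipoproteins that travel on high-density lipoprotein. Saa1 and Saa2 encode the acute-phase forms made by the liver, and Saa4 encodes the constitutive form. The 3 genes lie together on chromosome 7 (mm10): Saa1 from 46740497 to 46742980 on the minus strand, Saa2 from 46751790 to 46754313 on the plus strand and Saa4 from 46727998 to 46732603 on the minus strand.

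Stretches of the Saa promoters are shown so that the acute-phase pair can be compared with the constitutive gene. Across the 18 libraries r was 0.97 between Saa1 and Saa2, 0.83 between Saa1 and Saa4 and 0.71 between Saa2 and Saa4. Each runs 5′ to 3′ on the gene's strand from 200 to 61 bases before the RefSeq start (GRCm38.p6), with capitals marking matches to a C/EBP-type motif (TTGCNCAA) or an NF-kB-type motif (GGGNNNNNCC).
Saa1, chr7:46743041-46743180, minus strand: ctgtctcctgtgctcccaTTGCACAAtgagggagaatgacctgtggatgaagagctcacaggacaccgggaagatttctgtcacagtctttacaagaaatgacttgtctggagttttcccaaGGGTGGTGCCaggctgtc
Saa2, chr7:46751633-46751772, plus strand: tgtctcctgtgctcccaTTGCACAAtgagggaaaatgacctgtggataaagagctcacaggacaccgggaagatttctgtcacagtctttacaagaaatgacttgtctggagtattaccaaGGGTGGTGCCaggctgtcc
Saa4, chr7:46732664-46732803, minus strand: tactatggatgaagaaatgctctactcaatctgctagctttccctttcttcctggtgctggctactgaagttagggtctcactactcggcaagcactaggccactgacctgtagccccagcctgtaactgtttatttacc
Over the 250 bases before the start, Saa1 and Saa2 were identical at 238 positions when aligned, and Saa1 and Saa4 at 128. Both acute-phase genes held TTGCACAA, at positions -182 to -175 in Saa1 and -183 to -176 in Saa2, and GGGTGGTGCC, at -78 to -69 and -79 to -70. Saa4 held neither within the printed stretch; in its 250 bases the C/EBP-type motif matched at -52 to -45 and the NF-kB-type motif at -210 to -201. Searched on both strands over the 250 bases before each start, TTGCNCAA was found in 2.605% of 27025 RefSeq promoters, and GGGNNNNNCC, a loose motif, in 45.4%. The C/EBP-type letters were chosen after the promoters had been seen, and a match is a description of the sequence, not a measured site.

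Saa2 was the only gene of all 6592 tested that differed between skip2 alone and wild type (1 of 9 members, 0.0152% of genes tested). Its normalized count was 3054 and 915 in the skip2 alone libraries, 3.4 and 78.2 in wild type, and 146, 21.9 and 21.3 in skip1 alone. Both skip2 alone libraries were above every other library, as they were for 6 of 9 members (Saa1, Saa2, Saa4, Orm1, Orm2 and Hpx) and 2.82% of genes tested. The difference from wild type was 6.49 on the log2(value + 1) scale (SE 1.02, limma adjusted p = 0.0183). It was lost without either skip2 alone library (log2 differences 5.62 and 7.35) or without wild type library 1 (4.40, limma adjusted p = 0.235), with a minimum mean of 50 (adjusted p = 0.0513) and in a fit of the compared groups only (adjusted p = 0.0917).

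Saa1 had the same layout. Normalized counts were 2385 and 887 in skip2 alone, 30.6 and 168 in wild type, and 264, 34.5 and 42.7 in skip1 alone. Again the skip2 alone libraries were highest and did not overlap with the others. The difference from wild type was 4.32 (SE 0.94) and did not pass (limma adjusted p = 0.366), although it passed with voom on estimated reads (4.14, adjusted p = 0.0272). Wild type libraries differed 5.49-fold among themselves for Saa1 and 23-fold for Saa2, and skip1 alone libraries 7.65-fold and 6.85-fold.

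On induction the 2 acute-phase Saa genes fell in skip2. Saa1 was at 5.98 and 8.94 in the skip2 induced libraries and Saa2 at 3.68 and 4.77, about 13 and 15 estimated reads for Saa1 and 8 for Saa2. No library of these groups overlapped. The log2 difference from skip2 alone was -7.45 for Saa1 (SE 0.94, limma adjusted p = 1.94e-05) and -8.33 for Saa2 (SE 1.02, limma adjusted p = 1.39e-05), 322-fold on that scale. Both calls held in each of 15 alternatives, from -8.30 to -6.74 for Saa1 and from -9.25 to -7.46 for Saa2. In bulk RNA, fewer hepatocytes and less RNA per hepatocyte cannot be told apart. The hepatocyte marker sum was 90354 and 91779 in skip2 alone and 51508 and 57600 in skip2 induced.

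In skip1 the same genes did not pass. Saa1 was at 53.6, 38.9, 22.3, 27.1 and 12.8 in the skip1 induced libraries and Saa2 at 27.9, 24.1, 11.2, 15.4 and 7.46. The highest of these overlapped with the lower skip1 alone libraries. The direct test of whether the isoforms differ in their change passed for both genes: skip1 minus skip2, the difference of differences was 6.08 for Saa1 (SE 1.17, limma adjusted p = 0.0354) and 6.98 for Saa2 (SE 1.26, limma adjusted p = 0.0201), 2 of 9 members against 0.167% of genes tested. Without induction skip2 stood above skip1 by 4.29 (SE 0.86, limma adjusted p = 0.0943) for Saa1 and 5.31 (SE 0.93, limma adjusted p = 0.0515) for Saa2, and on induction skip1 stood above skip2 by 1.79 (SE 0.79, limma adjusted p = 0.246) and 1.67 (SE 0.85, limma adjusted p = 0.346). None of these 4 differences passed. Both calls were lost without skip2 alone library 1 (5.36 and 6.11, limma adjusted p = 0.249 for each), without skip2 induced library 1, without skip1 alone library 2 or 3, and without skip1 induced libraries 1 and 2 together. That of Saa1 was also lost without skip1 induced library 1 (5.85) or skip2 alone library 2 (6.79).

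With dN90, Saa1 fell. It was at 22, 10.2, 1.26 and 6.96 in the dN90 induced libraries, all below the wild type values. The log2 difference was -3.15 (SE 0.82, limma adjusted p = 0.00774). Without wild type library 2 it was -1.94 and no longer passed (limma adjusted p = 0.218), nor did it with voom (-2.56, adjusted p = 0.0573) or log2 depth as a covariate (-2.47, adjusted p = 0.121). Saa2 was at 10.2, 7.15, 1.26 and 4.97, which overlapped with wild type library 1. Its difference rested on which wild type library was kept: -3.74 (limma adjusted p = 0.00821) without library 1 and 0.43 without library 2.

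Saa4, the constitutive form, fell in all 3 induced comparisons, although least firmly in skip1. Its normalized count was 196 and 116 in wild type, 181, 65.6 and 115 in skip1 alone and 237 and 205 in skip2 alone. It was 66.7, 99.9, 24.1, 34.3 and 31.9 in skip1 induced, 14.7 and 25.6 in skip2 induced, and 10.2, 9.18, 2.51 and 4.97 in dN90 induced libraries. Only skip1 induced libraries 1 and 2 reached into the non-induced range. The log2 difference was -4.44 in dN90 (SE 0.51, limma adjusted p = 1.89e-06) and -3.44 in skip2 (SE 0.59, limma adjusted p = 0.000429), and both held in every alternative run. In skip1 it was -1.29 (SE 0.43, limma adjusted p = 0.0468), a call lost in 13 of 20 alternatives (-1.86 to -0.80). Among the tumours Saa4 was higher in skip1 than in dN90 induced libraries by 2.71 (SE 0.39, limma adjusted p = 0.00013), with no overlap.

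The share of Saa2 in the sum of Saa1 and Saa2 was compared over libraries, without correction for gene length. It was 56.1% and 50.8% in the skip2 alone libraries, and 53.5% ± 3.78 (SD, n = 2) as a mean. For skip1 the share was 35.9% ± 2.73 (n = 3) alone and 35.8% ± 1.98 (n = 5) on induction, and for skip2 induced it was 36.4% ± 2.34 (n = 2). The share was 41.1% ± 7.48 (n = 4) in dN90 induced and 10% and 31.8% in the wild type libraries, the former from about 3 estimated reads of Saa2. Skip2 alone libraries were above every other library, the nearest being dN90 induced library 3, where each gene had about 1 estimated read. Reads can be split between these paralogs: 31.1% of the 50-base windows of Saa1 transcripts also occur in Saa2.

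**Figure D2:**
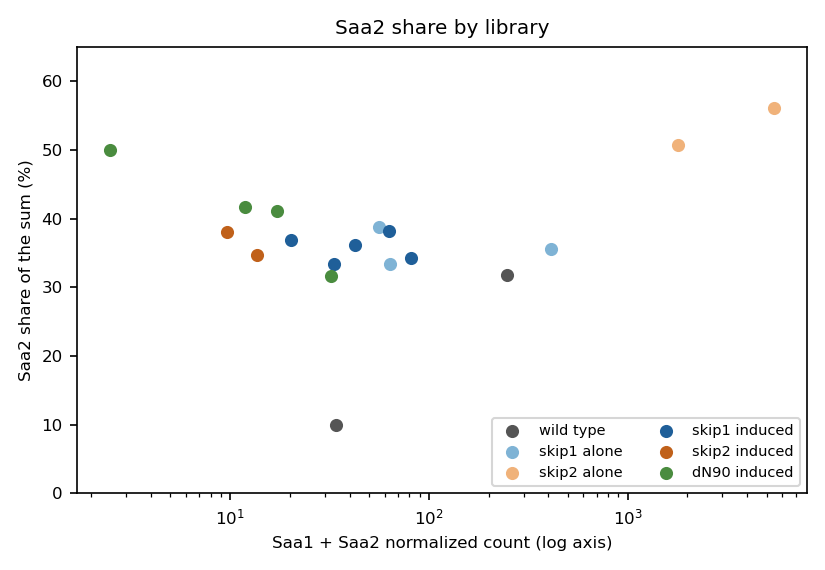
Share of Saa2 in the sum of Saa1 and Saa2 (percent, vertical axis) against that sum (normalized count, log axis), 1 point per library, coloured by group. The 2 skip2 alone libraries, with sums of 5439 and 1802, have shares of 56.1% and 50.8%, and the other 16 lie lower.

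Orosomucoids, or alpha-1-acid glycoproteins, are abundant plasma proteins that bind basic and neutral drugs and modulate immune cells. Orm1 (63344560 to 63348163) and Orm2 (63362449 to 63365878) are neighbours on the plus strand of chromosome 4 (mm10). A stretch of the Orm2 promoter (GRCm38.p6, from 200 to 61 bases before the start) is printed for comparison with the Saa promoters.
Orm2, chr4:63362249-63362388, plus strand: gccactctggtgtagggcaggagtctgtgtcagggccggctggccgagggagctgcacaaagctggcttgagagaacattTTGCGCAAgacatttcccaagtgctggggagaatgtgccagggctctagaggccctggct
The capitals mark TTGCGCAA, a match to the C/EBP-type motif at positions -120 to -113. The Orm2 window also held TATAAA at -33 to -28, found in 13% of promoters. Of the 7 members with a RefSeq promoter in the table, Lcn2 also held both motifs (TTGCTCAA at -216 to -209 and, on the opposite strand, GGACTACCCC at -102 to -93), while Hpx and Apcs held neither. A STAT-type motif (TTCNNNGAA), found in 7.18% of promoters, was also searched for. Among these 7 members it matched only in Apcs (TTCTAGGAA at -244 to -236). Both skip2 alone libraries were above every other library for 6 of 9 members, beside 2.82% of genes tested. The part of the motifs in this was not tested.

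Orm1 was the only member whose non-induced and induced libraries did not overlap (1 of 9, beside 8.48% of genes tested). Normalized counts of Orm1 were 333 and 322 in wild type, 350, 215 and 274 in skip1 alone and 768 and 492 in skip2 alone. It was 105, 132, 62.2, 55.1 and 38.3 in skip1 induced, 14.7 and 22 in skip2 induced, and 37.8, 25.5, 11.3 and 4.97 in dN90 induced libraries. The gap ran from 132 to 215. Orm1 fell by 1.93 on the log2 scale in skip1 (SE 0.45, limma adjusted p = 0.00609), by 5.02 in skip2 (SE 0.61, limma adjusted p = 1.39e-05) and by 4.31 in dN90 (SE 0.53, limma adjusted p = 4.73e-06). These 3 calls held in every alternative run.

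Between the induced groups, Orm1 was highest in skip1. The log2 difference from dN90 induced was 2.13 (SE 0.41, limma adjusted p = 0.00254) and held in all 21 alternatives. That from skip2 induced was 1.93 (SE 0.51, limma adjusted p = 0.0401), lost when skip1 induced library 1, 2 or 3 or either skip2 induced library was left out (1.65 to 2.20), and with log2 depth as a covariate (2.88, adjusted p = 0.22). Skip1 induced libraries 1 and 2 stood above the other 3 for Orm1 and Saa4, and their hepatocyte marker sums, 43411 and 64665, were also above the other 3 (24602 to 33967); the part of the marker level in this was not tested. Without both, the differences of Orm1 were 1.45 from skip2 induced (limma adjusted p = 0.126) and 1.65 from dN90 induced (limma adjusted p = 0.037). Orm1 did not pass the difference of differences between the isoforms (limma adjusted p = 0.12).

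Orm2 was low outside skip2 alone. Its normalized count was 112 and 93.4 in skip2 alone, against 6.80 and 6.65 in wild type and 21.4, 6.90 and 6.39 in skip1 alone. It was at or under 7.08 in the 11 induced libraries and listed at 0 in 3 of them; the highest rested on about 9 estimated reads. Skip2 alone libraries were thus apart from all others. The difference from wild type was 3.74 (SE 0.96, limma adjusted p = 0.497) and passed with a pseudocount of 5 (3.20, adjusted p = 0.00148), with voom (3.68, adjusted p = 0.0037) and in a fit of the compared groups only. On induction Orm2 fell by 4.80 in skip2 (SE 0.96, limma adjusted p = 0.00187), a call that held in each of 14 alternatives, and it did not pass in skip1 or dN90. Of the 50-base windows of Orm1 transcripts, 20.4% also occur in Orm2, so these reads too can be split.

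Lipocalin 2, encoded by Lcn2 (chromosome 2, 32384633 to 32388252, minus strand, mm10), binds bacterial siderophores and so withholds iron from bacteria. It is made by injured hepatocytes and by neutrophils. Its normalized count was 3.4 and 2.49 in wild type and 13.2, 4.60 and 0 in skip1 alone, that is, at most about 8 estimated reads, but 83.2 and 60.4 in skip2 alone. It was 15.1, 18.5, 44.6, 36.1 and 20.2 in skip1 induced, 49.7 and 45.3 in skip2 induced and 41.7, 17.3, 64.0 and 72.5 in dN90 induced libraries. All 11 induced and both skip2 alone libraries were above the 5 libraries of wild type and skip1 alone. The gap was small, from 13.2 to 15.1 (about 8 and 14 estimated reads). This split was drawn from these values, and the share of all genes split alike was not counted.

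Lcn2 rose in skip1 and dN90 and was the only member to rise in any induction comparison as reported. The log2 difference was 2.58 in skip1 (SE 0.58, limma adjusted p = 0.00472) and 3.49 in dN90 (SE 0.69, limma adjusted p = 0.000859). The skip1 call was lost without skip1 alone library 3, where Lcn2 was listed at 0 (1.53, limma adjusted p = 0.0504), and the dN90 call held in every alternative run. In skip2, where the level was already high without induction, Lcn2 did not pass. Its difference between skip2 alone and wild type was 4.20 (SE 0.80, limma adjusted p = 0.108), and between skip2 alone and skip1 alone 4.07 (SE 0.73, limma adjusted p = 0.0515). Each passed with no filter on low values and with a pseudocount of 5.

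Neutrophil markers were read for 6 of 13 (S100a9, Mpo, Ngp, Csf3r, Cxcr2 and Mmp9). Their summed level was 2.27 and 2.54 in wild type, 3.51 to 5.41 in skip1 alone, 2.78 and 5.84 in skip2 alone, 5.19 to 25.5 in skip1 induced, 8.45 and 8.51 in skip2 induced and 6.06 to 9.26 in dN90 induced libraries. Mpo and Ngp were listed at 0 in all 7 non-induced libraries, the 2 skip2 alone libraries with 83.2 and 60.4 of Lcn2 included. The highest neutrophil sum, 25.5, was in skip1 induced library 3, which also had the highest Lcn2 of its group (44.6). The part of neutrophils in the Lcn2 differences was not tested.

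**Figure D3:**
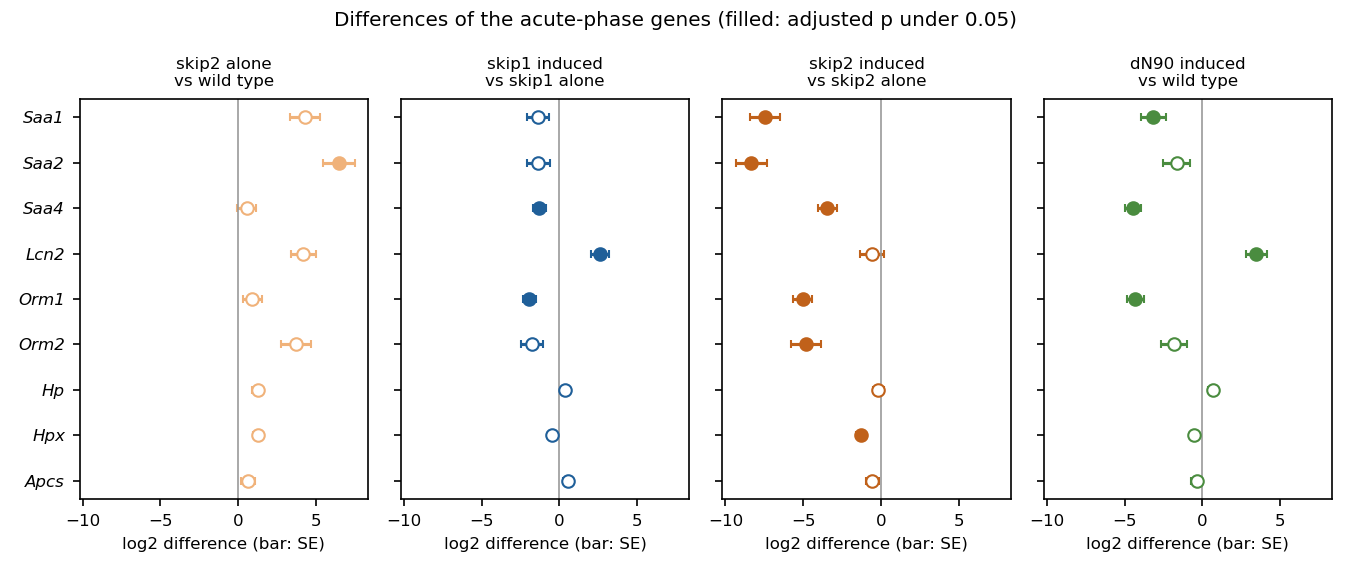
Log2 difference (horizontal axis, bars: SE) of each of the 9 genes in 4 comparisons (panels); filled points passed limma at an adjusted p under 0.05. In skip2, 6 genes fell on induction, down to -8.33 for Saa2, while Lcn2 rose by 2.58 in skip1 and 3.49 in dN90.

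Haptoglobin and hemopexin clear the products of red cell breakdown: haptoglobin, encoded by Hp (chromosome 8, 109575128 to 109579172, minus strand, mm10), binds free haemoglobin, and hemopexin, encoded by Hpx (chromosome 7, 105591613 to 105600137, minus strand), binds free haem. Hp did not pass any comparison as reported. The level of Hp was 1714 and 1510 in skip2 alone, 1377 and 1504 in skip2 induced, 479 and 944 in wild type and 1009, 584 and 666 in skip1 alone. It ran from 763 to 1101 in skip1 induced (median 962) and from 737 to 1591 in dN90 induced libraries. The skip2 alone libraries were above all other groups except part of dN90 induced. Hp is a case where the scaling decides: with every library scaled to the same column total, Hp was higher on induction in dN90 (1.15, limma adjusted p = 0.00626) and in skip1 (0.83, limma adjusted p = 0.0209), calls also made with voom and quantile normalization. That scaling moved the median of all genes by 0.46 and 0.45 in these comparisons.

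Hpx was likewise highest in skip2 alone, at 4633 and 3689. It was 1397 and 2088 in wild type, 2460, 1859 and 1591 in skip1 alone, 1049 to 1591 in skip1 induced, 1557 and 1929 in skip2 induced and 880 to 1484 in dN90 induced libraries. Both skip2 alone libraries were above every other. On induction Hpx fell by 1.25 in skip2 (SE 0.33, limma adjusted p = 0.0128), a direction that flips with quantile normalization (0.21); scaled to the same column total the difference was -0.65 and did not pass (limma adjusted p = 0.118), likewise with voom (-0.65, adjusted p = 0.0892). It was also lost without skip2 alone library 1 (-1.09) or skip2 induced library 1 (-1.10). In skip1 and dN90 Hpx did not pass.

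Serum amyloid P component, a pentraxin that binds amyloid fibrils and is the main short pentraxin of the mouse acute phase, is encoded by Apcs (chromosome 1, 172893961 to 172895041, minus strand, mm10). Its normalized count was 10.2 and 34.1 in wild type, 14.8, 15 and 9.59 in skip1 alone and 40.5 and 22 in skip2 alone. It ran from 12.9 to 26.9 in skip1 induced, was 19.3 and 20.8 in skip2 induced and ran from 12.9 to 15.3 in dN90 induced libraries. All neighbours in the order of group means overlapped, and Apcs passed no comparison as reported. Scaled to the same column total it was higher on skip1 induction (0.96, limma adjusted p = 0.0381).

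Counted over the 9 genes, induction gave 1 higher and 2 lower in skip1 (Lcn2; Orm1 and Saa4), where 14.7% of genes tested passed. In skip2 it gave 0 higher and 6 lower (Saa1, Saa2, Saa4, Orm1, Orm2 and Hpx), where 14.9% passed. In dN90 it gave 1 higher and 3 lower (Lcn2; Saa1, Saa4 and Orm1), where 22.7% passed. The median log2 difference of the members was -1.29, -3.44 and -1.66, beside -0.02, -0.06 and 0.01 over all genes tested. Skip2 alone against skip1 alone gave 0 of 9 in limma at a background of 0%. With voom 3 of 9 passed, beside 4 of 6592 genes. At an unadjusted p under 0.05 there were 7 of 9, and the share of all genes at that threshold was not counted. Skip1 alone against wild type gave 0 of 9 at a background of 0%, with 0 at an unadjusted p under 0.05 and 0 with voom. These comparisons share samples: both isoforms alone and dN90 induced are set against the same wild type libraries, and each isoform alone serves in several.

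Among the induced groups few members differed. Skip1 against skip2 induced gave 1 of 9 (Orm1; 3.53% of genes tested), and skip1 against dN90 induced gave 2 of 9 (Orm1 and Saa4; 4.63%). Skip2 against dN90 induced gave 0 of 9 in limma (3.03%), with 1 of 9 at an unadjusted p under 0.05 and 0 with voom. The 2 skip2 induced libraries had the most estimated reads (933146 and 815419), so isoform and depth go together here. With log2 depth as a covariate 13 genes passed in skip1 against skip2 induced, beside 233 as reported. In skip2 against dN90 induced 0 passed with that covariate, beside 200.

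Within groups, the members were often highest in the same library, though not in every group. In skip2 alone, library 1 was the higher for 9 of 9 members, beside 50.6% of all genes tested. In skip1 alone, library 1 was the highest of 3 for 8 of 9, beside 36.0% of genes. In skip2 induced, library 2 was the higher for 8 of 9, beside 57.1%. Wild type had no such order, with library 2 higher for 5 of 9. In skip1 induced, libraries 1 to 5 were highest for 4, 2, 2, 1 and 0 members, and in dN90 induced, libraries 1 to 4 for 5, 1, 0 and 3. Over the 18 libraries, which share their groups, Pearson's r on log2(value + 1) was 0.97 between Saa1 and Saa2, 0.95 between Saa4 and Orm1, 0.82 between Orm1 and Orm2, 0.76 between Lcn2 and Hp and -0.08 between Lcn2 and Saa1. With each group's mean subtracted these were 0.94, 0.73, 0.86, 0.43 and 0.12, and the lowest of all pairs was -0.32, between Saa4 and Apcs.

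The non-member genes with the most similar pattern over the 18 libraries were described by the same r. They were Fabp1 for Saa4 (0.975), a hepatocyte fatty acid binding protein gene, Wfdc21 for Orm1 (0.973), Itih4 for Hpx (0.908), Tomm70a for Orm2 (0.887), Arpc2 for Hp (0.868), Arl6ip1 for Saa1 (0.848), Nceh1 for Lcn2 (0.832), Slc11a2 for Saa2 (0.825) and Commd6 for Apcs (0.782). With group means subtracted, Wfdc21 was first for both Orm1 (0.917) and Orm2 (0.875).

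Of the other positive acute-phase proteins, 0 of 24 tested passed in limma in skip2 alone against wild type, with 9 at an unadjusted p under 0.05 and 0 with voom. The share of all genes at that unadjusted threshold was not counted. For 7 of the 24 (Itih3, Itih4, Cfb, Serpina3n, Serpina3m, Fgl1 and Plg), both skip2 alone libraries were above every other library, beside 2.82% of genes tested. Serpina3n, which encodes a protease inhibitor induced in inflammation, was at 385 and 570 in skip2 alone and 189 and 212 in wild type. On induction, 1 of the 24 rose and 2 fell in skip1, 2 rose and 6 fell in skip2, and 5 rose and 4 fell in dN90. Of all genes tested, 14.7%, 14.9% and 22.7% passed in these comparisons. The medians of the 24 were -0.15, -0.77 and -0.17. Vnn1, a pantetheinase gene, rose in all 3 (1.77, 2.08 and 1.83), and Serpina1a, an antitrypsin gene of a multigene family whose reads may be split, fell in skip1 (-1.34), skip2 (-1.44) and dN90 (-1.22). Serpina3n fell (-1.49) and Cp, the gene for the copper-carrying ferroxidase ceruloplasmin, rose (1.19) in skip2. Hamp2, a hepcidin gene (3.83), and the metallothionein gene Mt1 (3.29) rose in dN90, and the mannose-binding lectin gene Mbl1 fell (-1.69). Hamp2 was also higher in dN90 induced than in skip1 induced libraries (log2 difference of skip1 from dN90 -3.87, limma adjusted p = 0.000821). Of these calls, those of Mbl1 in dN90, Vnn1 in skip1 and Hamp2 between the induced groups held in every alternative run, and each of the others was lost in 1 to 4 of 14 to 20.

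Of 17 negative acute-phase proteins tested on induction, 1 rose and 7 fell in skip1, 1 rose and 4 fell in skip2, and 3 rose and 7 fell in dN90. Falls also outnumbered rises over all 6592 genes tested. There 432 rose and 539 fell in skip1, 430 and 555 in skip2, and 711 and 788 in dN90. The medians of the 17 were -0.55, -0.19 and -0.49. Over the genes with a mean of at least 50, the medians were -0.24, -0.35 and -0.19. Ttr, which encodes transthyretin, fell in all 3 (-1.56, -1.99 and -3.38), as did Apoa2 (-1.19, -1.78 and -1.91). Alb fell in skip1 (-1.78) and dN90 (-2.01). Serpina7, which encodes thyroxine-binding globulin, rose in all 3 (3.37, 2.91 and 2.03). The calls of Ttr in dN90 and of Serpina7 in skip1 and skip2 held in every alternative run, and each of the others named was lost in 1 to 3 of 15 to 20. In skip2 alone against wild type 0 of the 17 passed in limma, with 1 at an unadjusted p under 0.05 and 0 with voom.

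**Figure D4:**
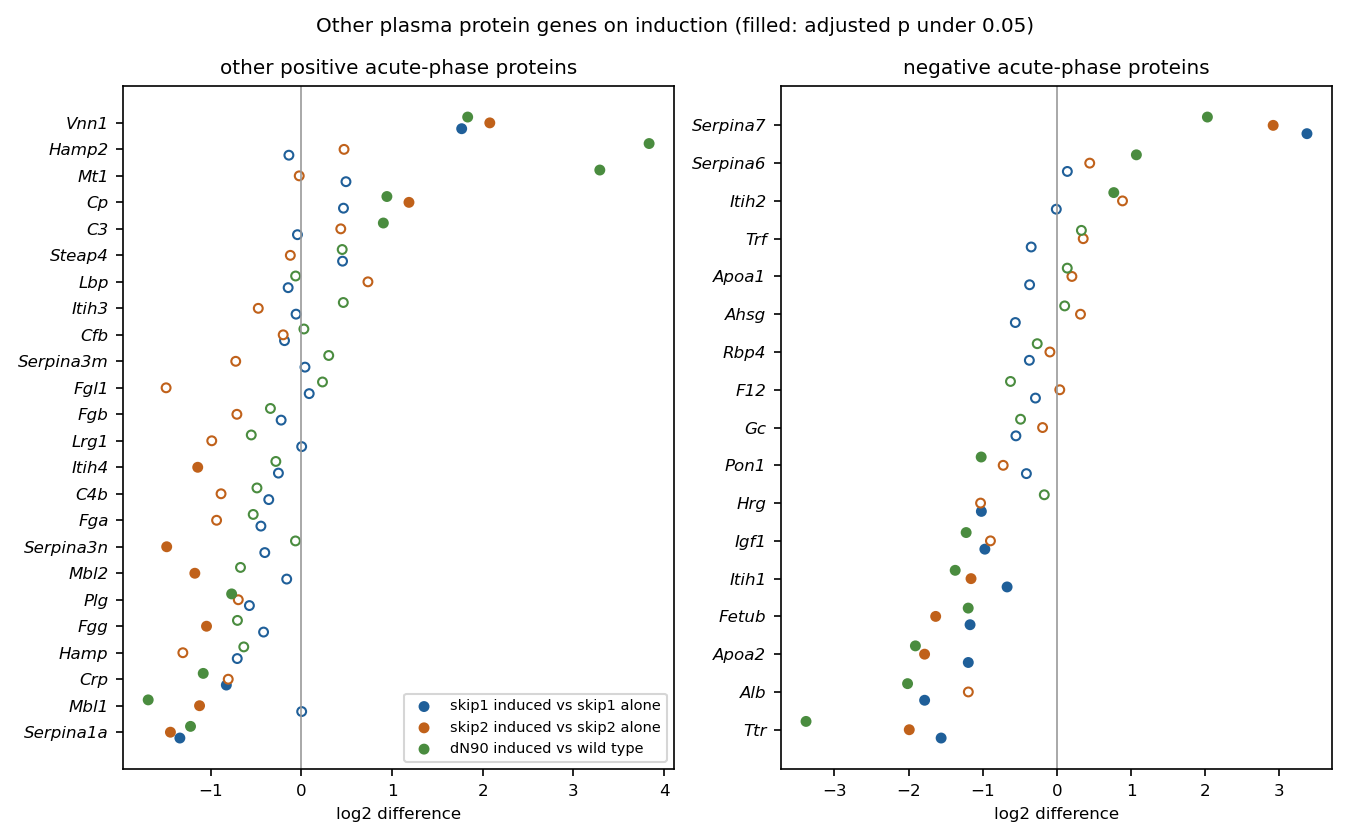
Log2 difference on induction (horizontal axis) of the other positive (left, 24 genes) and negative (right, 17 genes) acute-phase proteins in skip1, skip2 and dN90 (colours); filled points passed limma at an adjusted p under 0.05. Vnn1 and Serpina7 rose in all 3 comparisons, and Ttr and Apoa2 fell in all 3.

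The signalling genes upstream of the response were read at low levels. Of 11 cytokine ligands 4 were read (Il1a, Il1b, Lif and Il18), with means of 1.62 to 6.54 over the libraries, and none reached the filter. In the interleukin 6 and STAT3 list, 11 of 19 were tested, and on induction 1 rose and 1 fell in each of the 3 comparisons. Of all genes tested, 14.7% passed in skip1, 14.9% in skip2 and 22.7% in dN90. Lifr, the leukaemia inhibitory factor receptor gene, fell in skip1 (-1.23), skip2 (-2.15) and dN90 (-2.28), calls that held in every alternative run. Il10rb, a receptor chain for interleukin 10 and interleukin 22, rose in skip2 (1.13) and dN90 (1.77), and Il22ra1, the other chain of the interleukin 22 receptor, in skip1 (1.75). The call of Il10rb in dN90 held too, while that in skip2 was lost in 6 of 14 alternatives and that of Il22ra1 in 4 of 19. Socs3, a feedback target of STAT3, had a mean of 9.03 and was not tested.

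In the interleukin 1, TNF and NF-kB list, 14 of 23 were tested. On induction 2 rose and 1 fell in skip1, 1 rose and 2 fell in skip2, and 3 rose and 1 fell in dN90. The shares of all genes tested that passed were 14.7%, 14.9% and 22.7%. Tnfaip3, an NF-kB target that encodes an inhibitor of the pathway, rose in all 3 (2.38, 2.56 and 2.35), and Chuk, which encodes a kinase of the IkB kinase complex, fell in all 3 (-0.74, -1.19 and -1.98). Icam1 rose in skip1 (1.44) and dN90 (2.15), and the interleukin 1 receptor accessory gene Il1rap fell in skip2 (-1.87). Several of these calls depended on the setting. That of Chuk was lost in 11 of 19 alternatives in skip1 (-0.97 to -0.28) and in 4 of 14 in skip2, and that of Il1rap in 8 of 15 (-2.84 to -0.91), voom and leaving out either skip2 alone library among them. Chuk in dN90 and Tnfaip3 in skip1 held in every alternative run, and the other calls of Tnfaip3 and Icam1 were each lost in 1. None of the 14 passed in skip2 alone against wild type in limma (1 at an unadjusted p under 0.05, 0 with voom), and none of the 11 in the STAT3 list (1 and 0).

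Of 8 tested partners of the members in haem, lipid and siderophore handling, Ambp, which encodes the haem-binding alpha-1-microglobulin, fell in skip1 (-0.75), skip2 (-1.40) and dN90 (-1.22). The dN90 call held in every alternative run, but that in skip1 was lost in 8 of 20 (-1.03 to -0.12), voom, quantile normalization and scaling to the same column total among them, and that in skip2 in 2 of 15. Scarb1, the high-density lipoprotein receptor gene, rose in skip2 (1.23), and the iron exporter gene Slc40a1 fell in dN90 (-0.91), calls lost in 2 of 15 and 4 of 17 alternatives. No other partner passed on induction. Of 9 tested hepatocyte transcription factors 0 passed in limma in any of the 10 comparisons, with at most 1 at an unadjusted p under 0.05 and at most 1 with voom in each.

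In the z-scored libraries the 5 members present were set against the actin guide and YAPS127A control. A difference is in units of the deposited z-score, and which libraries set its SD is not known. The control libraries were at -0.31, 1.22 and 3.60 for Saa1, -0.30, 0.75 and 3.75 for Saa2, 0.75, 2.27 and 2.76 for Saa4, 0.70, 2.06 and 2.94 for Orm1, and -0.28, 1.30 and 3.55 for Orm2. For Saa1, Saa2 and Orm2 the lowest control library lay within the range of subtype A, while for Saa4 and Orm1 all 3 were above them. All 5 members were lower in subtype A, from -2.20 for Orm1 to -1.70 for Saa2, where 97.3% of the 1659 selected genes passed limma. The call of Saa2 was lost in a fit of the compared groups only (adjusted p = 0.0628). All 5 were also lower in subtype B, from -2.43 for Saa4 to -1.71 for Saa2, where 99.6% passed. The fit shared a single spread over groups that differ widely in theirs. For Saa1 the SD was 1.97 in the control and 0.0026 in subtype B. The p-values of these calls therefore do not measure the spread of the control libraries. The members' shares are those of the table as a whole, whose genes the authors selected.

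Between subtypes A and B, 0 of 5 members passed in limma, with 0 at an unadjusted p under 0.05, where 61.1% of the table's genes passed. Saa4 ran from -0.30 to -0.15 in subtype A and from -0.56 to -0.41 in subtype B, and Orm1 from -0.41 to -0.15 and from -0.52 to -0.43. For these 2 of 5 members the subtypes did not overlap, as for 38.9% of the table's genes. In a fit of the 2 subtypes alone, without the spread of the control libraries, Saa4 was higher in subtype A by 0.26 (limma adjusted p = 0.000781) and Orm1 by 0.19 (limma adjusted p = 0.00442). Saa1, Saa2 and Orm2 differed by 0.03, 0.01 and 0.08 and did not pass in that fit.

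**Figure D5:**
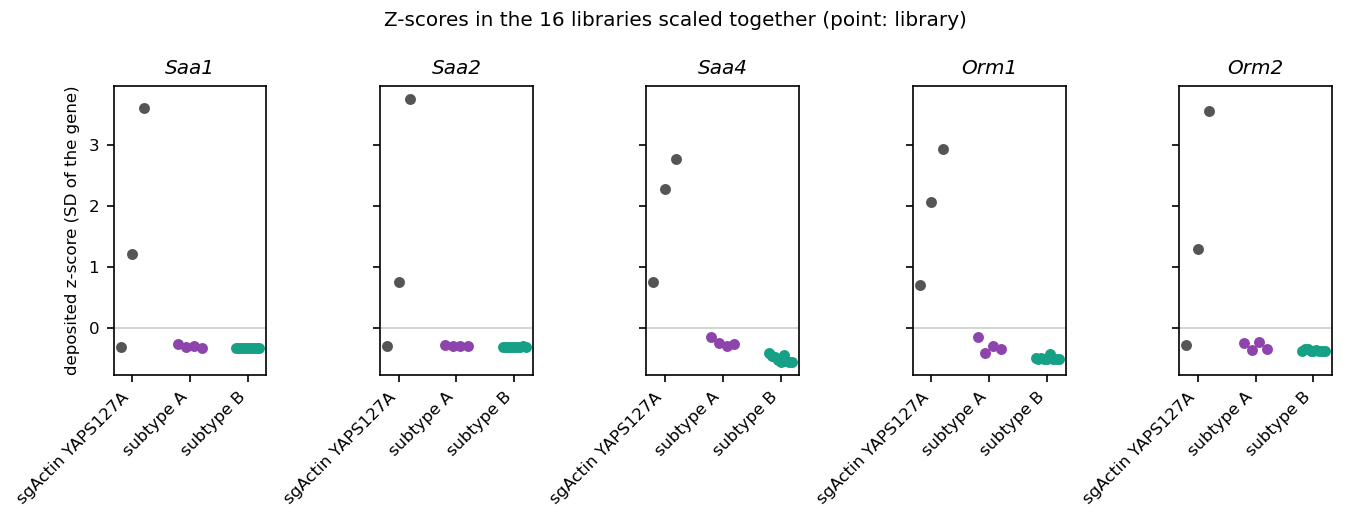
Deposited z-scores (vertical axis, in SDs of the gene) of the 5 members in the control (3), subtype A (4) and subtype B (9) libraries, 1 point per library. The tumours lie between -0.56 and -0.15, and the control libraries spread from -0.31 to 3.75.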

How the data were processed

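RNA of 34 mouse liver samples was sequenced. The submitters' processing notes name FastQC, STAR, RSEM, DESeq2 and build mm10; versions and settings are not given in the sources used here. The normalized counts are deposited as a non-negative signal per gene, and the z-scores as a score per gene; the values show that the authors centred and scaled each of the 1659 genes they selected, and their selection rule is not stated. In the block of 16 libraries gene means are not 0 (up to 0.24 in size), so what these were scaled over is not known. Estimated reads are the column sum over the value of 1 read; 60.0% of values above 0 were whole multiples of it within 0.001, so they are estimates. For the z-scores no depth is known.

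Normalized counts with a mean of at least 10 were tested as log2(value + 1), which understates changes of low genes, with limma 3.58.1 in R 4.3.3: all 18 libraries, 1 coefficient per group, trended prior, two-sided, Benjamini-Hochberg over all genes, called at an adjusted p under 0.05. Z-scores were tested with limma without a trend on the 16 libraries. The fit was tested on simulated data. Alternatives were pseudocounts of 0.5 and 5, a minimum mean of 50 or none, scaling by upper quartile or quantiles, voom, log2 depth as a covariate, array weights, only the compared groups, and each library left out; scaling to the same column total and leaving out skip1 induced libraries 1 and 2 together were chosen after seeing the data. Replicates are numbered in accession order.

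The members and lists were chosen with earlier results of these data known. All members are named, and from each list at most 4 called genes per comparison with the largest differences, beside Socs3, the ligands and Serpina3n in skip2 alone, which were named after their values were seen. Serpina1a in dN90 was named beyond the 4 of its list. Likeness was Pearson's r, the 3 highest per gene. Gene positions are from GENCODE vM21 (mm10). Promoters are from RefSeq (GRCm38.p6), matched for 7 of 9 members (not Hp and Orm1), and aligned with Biopython 1.88; figures used matplotlib 3.10.9.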

Additional observations from a re-analysis of the deposited data

Results flagged for a closer look

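The change on induction differed between the isoforms for the acute-phase Saa genes. Skip1 minus skip2, it was 6.08 on the log2 scale for Saa1 and 6.98 for Saa2, from a direct test of the difference of differences. The call was lost in 7 of 24 alternatives for Saa1 and in 5 of 24 for Saa2. Without induction skip2 already stood above skip1 by 4.29 for Saa1 and 5.31 for Saa2, from 2 skip2 alone libraries. Saa1 and Saa2 were lower in both skip2 induced libraries than in both skip2 alone libraries.

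In subtype B, 1 tumour (library 6) stood apart from the other 8 for Orm1, with a z-score of -0.43, the highest of its group and next to the range of subtype A. Of 28 groups of 4 to 10 libraries examined for such a library 1 was found, and chance gives about 1 in 20.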

How the results depend on the processing

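No paired analysis was possible because the labels carry no replicate numbers. Member counts moved by over 1.5 times in these settings. Skip2 alone against wild type (1 as reported) gave 2 with array weights, no filter or only the compared groups, 3 with voom, 4 with a pseudocount of 5 and 0 with a mean of at least 50; leaving out single libraries gave 0 to 1. Skip2 alone against skip1 alone (0) gave 3 with array weights, no filter or voom, 4 with a pseudocount of 5 and 1 with log2 depth as a covariate; leaving out single libraries gave 0 to 3. Skip1 against skip2 induced (1) gave 0 with log2 depth as a covariate, 2 with only the compared groups, 0 without skip1 induced libraries 1 and 2 together, and 0 to 1 without single libraries. The difference of differences (2) gave 0 without these 2 libraries together and 0 to 3 without single libraries. Skip1 induction (3) gave 1 to 3 without single libraries, and subtype A against B (0) gave 1 with array weights and 2 with only the compared groups. Directions reversed for Hpx on skip2 induction with quantile normalization (0.21), for Itih4 there too (0.022), and for Saa2 in dN90, from -3.74 to 0.43 without single libraries; the causes were not tested. Of the recomputed member differences that passed as reported or in some setting, 713 kept their side of the threshold, 46 lost the call and 47 gained it. Voom and the scaling to the same column total moved the median of all genes on induction by 0.45 to 0.58.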
